A study of Mus musculus with 13 samples.

Results

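The 9 genes described here are those most often used to read an epithelial-mesenchymal transition (EMT) from RNA: the transcription factor genes Zeb1, Zeb2, Snai1, Snai2, Twist1 and Twist2, and the mesenchymal marker genes Vim, Cdh2 and Fn1. They were picked by symbol from the 53465 genes of the deposited expression table, in a list drawn up with earlier results of these data known. All 9 are in the table and all 9 passed the filter on low values, a TPM (a level scaled by gene length and by the total of the library) of at least 1 in at least 3 libraries. Twist2 passed it through tumors alone, because its level was under 1 TPM in every normal ovary. The libraries came from 10 MP tumors and 3 wild-type (WT) ovaries of C57BL/6 mice. An MP tumor is an EPO-GEMM tumor, grown in the animal after plasmids were electroporated into the ovary of a wild-type female of 8 to 12 wk: one expressing Cas9 and an sgRNA against Trp53, and a Sleeping Beauty transposon overexpressing MYC. The WT ovaries had no treatment, and the labels give no age for them apart from this range. Electroporation does not select a cell type, the tumors are described as oligoclonal, and whole tissue was taken at the end point. Tumors from mice with Cas9 limited to keratin 8 cells, which the study used to ask about the cell of origin, were not analysed here.

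EMT is a change of state in which epithelial cells lose their junctions and take on the shape, matrix and motility of mesenchymal cells. The ZEB, SNAIL and TWIST families hold its core transcription factors, and Zeb1, Zeb2, Snai1 and Snai2 encode zinc finger repressors that bind E-box sequences in genes such as Cdh1, which encodes E-cadherin. Vimentin (Vim), N-cadherin (Cdh2) and fibronectin (Fn1) are read as its outcome, but fibroblasts, endothelium, smooth muscle, leukocytes and the stroma and granulosa cells of a normal ovary make several of these RNAs without any transition.

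Reads worked back from the table came to between 31445004 and 64013840 per WT ovary and between 3892690 and 19906507 per MP tumor, so a single read per 1 kb of gene stood for as much as 0.790 TPM in a tumor and 0.109 TPM in an ovary. The library names share 1 of 3 numbers, called library series here since the labels do not say what the number stands for. Series 1 held the 3 ovaries and MP tumors 1 to 3, series 2 held MP tumors 4 to 6 and series 3 held MP tumors 7 to 10. Trp53, the edited gene, lay between 80.7 and 85.4 TPM in the ovaries and between 4.30 and 26.0 TPM in 9 tumors, but at 187 TPM in the library labelled MP tumor 10. The 10 most abundant genes took 55.1% of TPM in MP tumor 2 and at most 20.6% in the other tumors. Oocyte markers summed to between 186 and 279 TPM in the ovaries and to at most 21.5 TPM in the tumors, and epithelial markers summed to between 14.0 TPM in MP tumor 6 and 1279 TPM in MP tumor 4. The median log2 fold change of all 17277 genes tested was -0.58 in MP tumors against WT ovaries, and fold changes of single genes are to be read against it.

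Promoter sequences from RefSeq (GRCm38.p6) were at hand for 5 of the 9 genes, Zeb2, Snai1, Twist1, Twist2 and Vim, with 8 start sites in all. They were searched for the E-box CACCTG, or CAGGTG on the other strand, which ZEB and SNAIL proteins bind. Of the 8 windows of 300 bases (250 before to 50 after the start) 1 held it, that of Snai1, and among 32817 promoters of all genes 20.2% held it. Snai1 is shown because it alone has the motif, in capitals at position 125, and Twist1 and Twist2 because this pair of paralogs had fold changes of opposite sign. Each line gives the 250 bases before the start, on the plus strand, at chr2:167537945-167538194 for Snai1, chr12:33957421-33957670 for Twist1 and chr1:91801211-91801460 for Twist2.
Snai1: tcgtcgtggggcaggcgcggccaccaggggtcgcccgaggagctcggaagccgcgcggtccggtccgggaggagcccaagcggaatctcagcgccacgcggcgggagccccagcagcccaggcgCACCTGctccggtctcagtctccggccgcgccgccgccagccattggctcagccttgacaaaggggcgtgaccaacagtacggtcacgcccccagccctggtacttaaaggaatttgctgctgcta
Twist1: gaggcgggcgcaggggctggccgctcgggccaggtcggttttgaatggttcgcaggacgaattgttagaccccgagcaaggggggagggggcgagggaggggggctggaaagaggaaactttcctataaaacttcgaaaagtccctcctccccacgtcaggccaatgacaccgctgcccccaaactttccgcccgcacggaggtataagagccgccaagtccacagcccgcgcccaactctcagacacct
Twist2: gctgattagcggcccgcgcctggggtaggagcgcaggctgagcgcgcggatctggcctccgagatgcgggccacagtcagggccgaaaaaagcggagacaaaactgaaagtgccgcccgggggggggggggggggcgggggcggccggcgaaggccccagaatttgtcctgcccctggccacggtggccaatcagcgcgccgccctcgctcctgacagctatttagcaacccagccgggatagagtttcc
A match is a description of letters and says nothing of binding in these tissues.

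MP tumors were compared with WT ovaries to ask whether EMT regulators and mesenchymal markers were higher in the tumors than in normal tissue. Zeb2 and Snai2 were lower in the tumors past the threshold (limma, Benjamini-Hochberg adjusted p under 0.05), none of the 9 genes was higher, and 7 did not pass. Over all genes tested, 14.3% were called lower and 2.51% higher. In 2 of the 9, Zeb1 and Zeb2, every tumor was below every ovary, and in none was every tumor above, against 16.4% and 3.02% of all genes. At an unadjusted p under 0.05, 5 of the 9 were lower and 0 higher, against 27.4% and 5.63% of all genes. The fold change was negative for 8 genes and positive for Twist2, and the 9 had a median log2 fold change of -1.76, beside -0.58 over all genes. In bulk tissue, fewer cells of a type and less RNA per cell cannot be told apart.

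**Figure D1:**
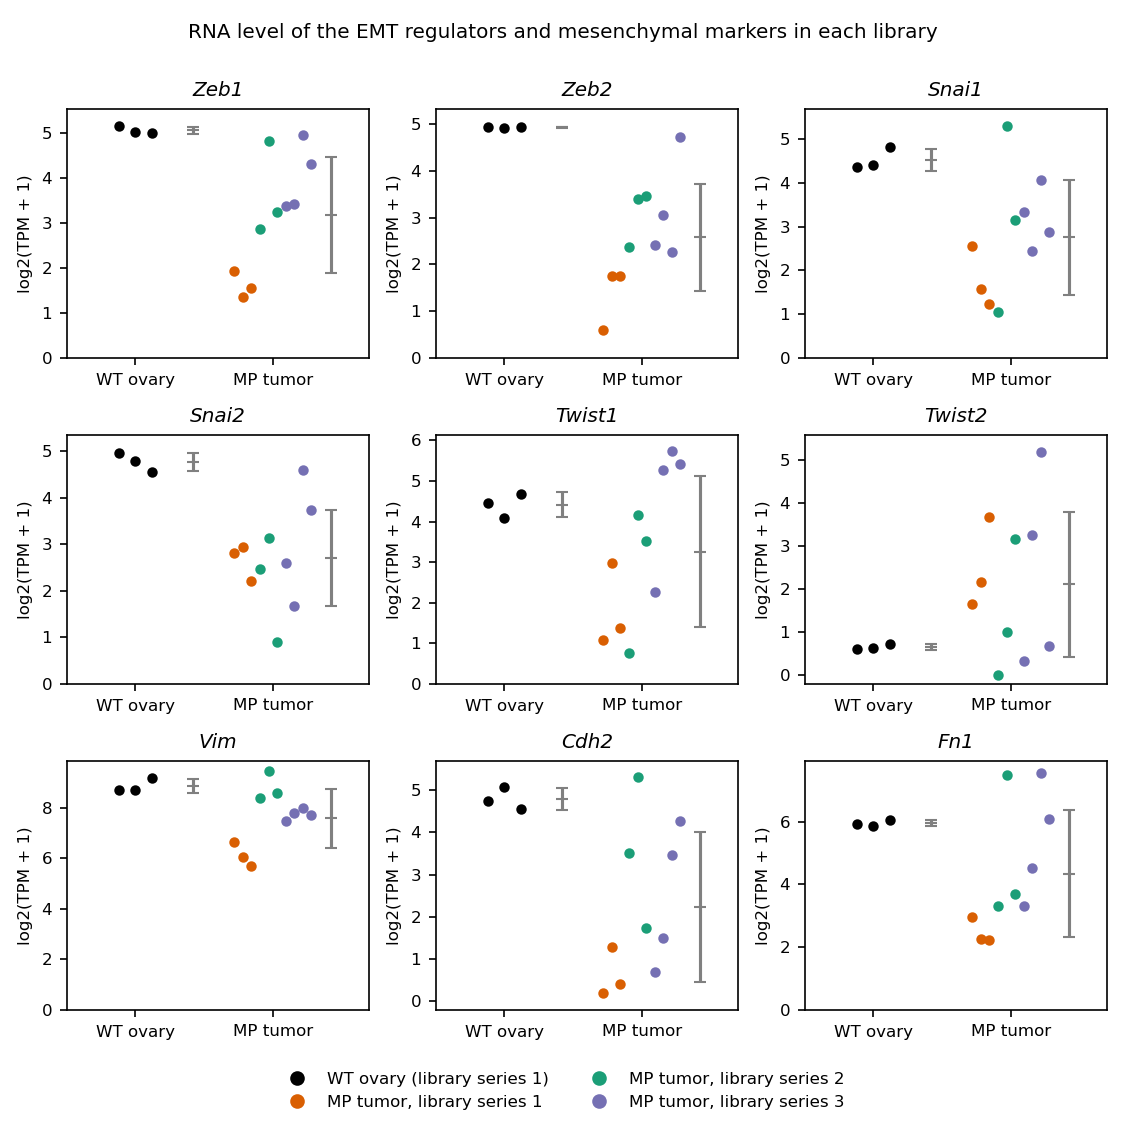
Level of each gene as log2(TPM + 1) in 3 WT ovaries (black) and 10 MP tumors, coloured by library series, with the mean and SD of each group in grey beside the points. Zeb1 and Zeb2 lie below every ovary in all 10 tumors, Twist2 lies above every ovary in 7 of 10, and the tumors of series 1 are the lowest for Zeb1, Zeb2, Vim and Fn1.

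The ZEB genes gave the least overlap between the groups. Zeb2 (ENSMUSG00000026872, chromosome 2, 44983632 to 45117395, minus strand, GRCm38) stood at 29.5, 29.3 and 29.5 TPM in the 3 ovaries. In the tumors it ran from 0.523 TPM in MP tumor 1 through a median of 4.22 to 25.6 TPM in MP tumor 10. Every tumor was below every ovary, and MP tumor 10 came closest. For Zeb2 the log2 fold change of -2.35 ± 0.66 (SE) passed (limma, adjusted p = 0.0241). Zeb1 (ENSMUSG00000024238, on chromosome 18), the paralog with the same zinc finger plan, stood at 34.6, 31.9 and 31.3 TPM in the ovaries. Its tumor values ran from 1.54 TPM in MP tumor 2 through a median of 8.96 to 30.3 TPM in MP tumor 9. All 10 tumors were again below the ovaries, with MP tumor 9 at 30.3 TPM and MP tumor 5 at 27.3 TPM close under the lowest ovary. Its log2 fold change of -1.88 ± 0.72 did not pass (limma, adjusted p = 0.0839). It passed in 7 of 25 alternatives, among them without MP tumor 5 and without MP tumor 9. In those 2 fits 18.5% and 19.2% of all genes were lower, and the lower limma adjusted p of Zeb1 was 0.0410. An antisense gene, Zeb2os, overlaps Zeb2 with a mean of 3.35 TPM in ovaries and 1.40 TPM in tumors, and since the strand setting of the counting is not given in the sources used here, reads of this pair cannot be told apart where they overlap.

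Within library series 1, where ovaries and tumors share the number, both ZEB genes passed, with log2 fold changes of -3.46 ± 0.27 for Zeb1 (adjusted p = 1.7e-05) and -3.55 ± 0.36 for Zeb2 (adjusted p = 5.5e-05). There 62.4% of all genes were called lower and the median log2 fold change of all genes was -1.44. Series 2 and 3 have no WT ovary, so no within-series value exists for them. The series 1 tumors spanned 1.54 to 2.81 TPM of Zeb1, below the 6.31 to 27.3 TPM of series 2 and the 9.37 to 30.3 TPM of series 3, and for Zeb2 they spanned 0.523 to 2.39 TPM, below the lowest of series 2 (4.14 TPM) and of series 3 (3.79 TPM). Whether the series or the tumors set this apart cannot be told from these libraries.

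Snai2 (Slug, ENSMUSG00000022676, chromosome 16, 14705852 to 14709395, plus strand, as the table gives it) stood at 30.2, 26.6 and 22.7 TPM in the ovaries. It ran from 0.874 TPM in MP tumor 6 through a median of 5.55 to 23.2 TPM in MP tumor 9. MP tumor 9 alone overlapped the ovaries and the other 9 tumors were below them. Snai2 passed, its log2 fold change being -2.06 ± 0.61 (limma, adjusted p = 0.0306). The calls of Zeb2 and Snai2 were both lost when any 1 of the 3 WT ovaries was left out (adjusted p up to 0.119 for Zeb2 and 0.157 for Snai2) and when the trend of fold change with gene length was removed (0.0693 and 0.0557), and that of Snai2 also under median-of-ratios scaling (0.126), quantile normalization (0.139) and log2(TPM + 0.1) (0.0531). Both fold changes stayed negative, and below the median of all genes, under all 25 alternatives.

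Snai1 (ENSMUSG00000042821, chromosome 2, 167538195 to 167542814, plus strand), the founding SNAIL factor, stood at 19.5, 20.2 and 27.1 TPM in the ovaries. Its tumor values ran from 1.06 TPM in MP tumor 4 through a median of 5.62 to 38.5 TPM in MP tumor 5. MP tumor 5 was above every ovary and the other 9 were below every ovary, and the log2 fold change of -1.76 ± 0.74 did not pass (limma, adjusted p = 0.109). The level of 38.5 TPM in MP tumor 5 rests on 79 reads, and over the tumors between 3 and 79 reads lay in Snai1 and between 5 and 125 in Snai2. Without MP tumor 5, Snai1 passed as lower (adjusted p = 0.0273).

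The TWIST genes encode basic helix-loop-helix factors and had the widest spread of the 6 factor genes among the tumors, with an SD of 1.87 (Twist1) and 1.69 (Twist2) on the log2(TPM + 1) scale. Twist1 (ENSMUSG00000035799, chromosome 12, 33957671 to 33959829, plus strand) stood at 21.1, 15.9 and 24.8 TPM in the ovaries. It ran from 0.704 TPM in MP tumor 4 through a median of 8.66 to 52.7 TPM in MP tumor 9. MP tumors 8, 9 and 10, at 37.6, 52.7 and 41.9 TPM, were above every ovary, 6 tumors were below, and MP tumor 5 lay within their range. The 3 high tumors are all of library series 3, whose remaining tumor, MP tumor 7, was at 3.80 TPM. Over all libraries the log2 fold change of -1.15 ± 1.00 did not pass (limma, adjusted p = 0.423).

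Twist2 (ENSMUSG00000007805, chromosome 1, 91801461 to 91848028, plus strand), its close paralog, was nearly silent in the ovaries at 0.530, 0.547 and 0.663 TPM, from 16 to 41 reads. In the tumors it ran from 0 TPM in MP tumor 4 through a median of 2.83 to 35.8 TPM in MP tumor 9. The next highest were 11.9 TPM in MP tumor 3, 8.54 in MP tumor 8 and 7.94 in MP tumor 6, and 7 of 10 tumors were above every ovary. MP tumors 4, 7, 5 and 10 held 0, 2, 4 and 3 reads, so their order is within counting error, while MP tumors 3 and 9 held 332 and 302. A count of 0 reads in MP tumor 4 allows up to 0.541 TPM. The log2 fold change of 1.46 ± 0.90 on the log2(TPM + 1) scale did not pass over all 13 libraries (limma, adjusted p = 0.265). In library series 1 alone it was 1.85 ± 0.47 (limma, adjusted p = 0.00802), where 6.84% of all genes were called higher, and with the series as a covariate in all libraries it did not pass (adjusted p = 0.174). Since Twist2 entered these fits through the tumors in which it was high, its direction and its pass in series 1 are descriptions and support nothing. The antisense gene Gm29100, inside Twist2, was also highest in MP tumor 9, at 8.53 TPM. How the counting treated reads that match both TWIST genes, whose helix-loop-helix region is nearly the same, is not given in the sources used here.

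The tumors differed in which factor gene was most abundant per length. In each of the 3 ovaries it was Zeb1, with at most 25.6% of the TPM summed over the 6 factor genes. In the tumors it was Twist1 in MP tumors 2, 6, 8, 9 and 10, Zeb1 in MP tumors 4 and 7, Snai2 in MP tumor 1, Twist2 in MP tumor 3 and Snai1 in MP tumor 5. The TWIST pair took between 13.3% and 18.7% of the sum in ovaries and from 4.21% in MP tumor 4 to 66.1% in MP tumor 8. The sum itself was 124 to 136 TPM in ovaries and 16.7 to 162 TPM in tumors, with MP tumor 9 alone above the ovaries. The lead over the next gene was narrow in MP tumor 7, at 9.37 TPM of Zeb1 against 9.17 TPM of Snai1 (36 reads), in MP tumor 2, at 6.85 TPM of Twist1 (62 reads) against 6.65 TPM of Snai2 (75 reads), and in MP tumor 6, at 10.5 TPM of Twist1 (48 reads) against 9.94 TPM of Zeb2, so the leading gene is not settled there. Nor is it settled in MP tumor 1, at 6.03 TPM of Snai2 (88 reads) against 4.89 TPM of Snai1 (57 reads). The same holds for MP tumor 4, at 6.31 TPM of Zeb1 (113 reads) against 4.51 TPM of Snai2 (16 reads). The lead was wide in MP tumor 3, at 11.9 TPM of Twist2 (332 reads) against 3.65 TPM of Snai2 (65 reads).

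**Figure D2:**
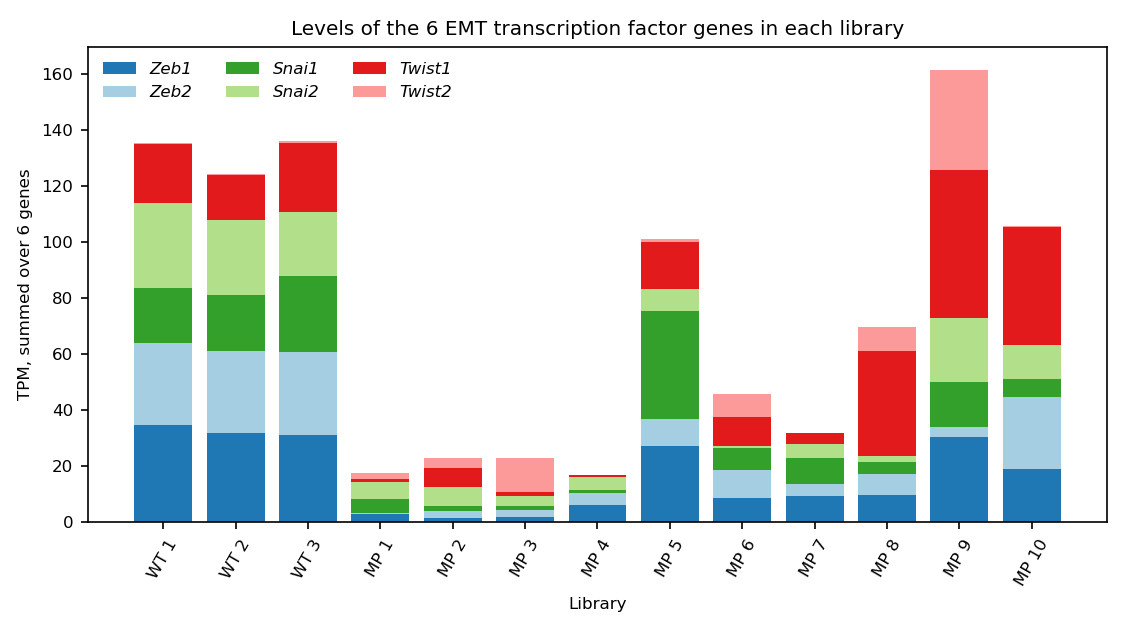
TPM of the 6 EMT transcription factor genes stacked in each library, with bars starting at 0. The ovaries share 1 mix with a sum of 124 to 136 TPM, while the tumors range from 16.7 to 162 TPM. The leading gene differs between tumors and is not settled in MP tumors 1, 2, 4, 6 and 7.

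Of the 3 mesenchymal markers 0 passed in limma, beside 14.3% of all genes lower. Cdh2 alone had an unadjusted p under 0.05, beside 27.4% of all genes lower at that p. All 3 were lower in library series 1 alone and with series as a covariate, beside 62.4% and 49.4% of all genes. Vim (ENSMUSG00000026728, chromosome 2, 13573927 to 13582826, plus strand), the intermediate filament of mesenchymal cells, was the most abundant of the 9 genes in all 13 libraries. It stood at 415, 415 and 573 TPM in the ovaries and ran from 50.6 TPM in MP tumor 3 through a median of 217 to 708 TPM in MP tumor 5. MP tumor 5 was above every ovary and the other 9 tumors were below (log2 fold change -1.27 ± 0.63, limma, adjusted p = 0.171). The series 1 tumors spanned 50.6 to 99.1 TPM, apart from series 2 at 332 to 708 TPM and series 3 at 177 to 250 TPM.

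Cdh2 (ENSMUSG00000024304, on chromosome 18), the cadherin of neural and mesenchymal cells and of granulosa cells, stood at 25.8, 32.7 and 22.3 TPM in the ovaries. It ran from 0.155 TPM in MP tumor 1 through a median of 2.08 to 38.4 TPM in MP tumor 5. One tumor, MP tumor 5, was above every ovary and 9 were below, next being MP tumor 10 at 18.2 TPM and MP tumor 4 at 10.4 TPM. The log2 fold change of -2.55 ± 0.95 was the lowest of the 9 but did not pass (limma, adjusted p = 0.0772), and it passed without MP tumor 5 (adjusted p = 0.0215). In 3 tumors, MP tumors 1, 3 and 7, it rested on 9, 23 and 12 reads.

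Fn1 (ENSMUSG00000026193, chromosome 1, 71585520 to 71653200, minus strand), which encodes the matrix protein fibronectin, stood at 60.2, 57.5 and 65.6 TPM in the ovaries. It ran from 3.71 TPM in MP tumor 3 through a median of 10.4 to 186 TPM in MP tumor 9. MP tumors 5, 9 and 10, at 180, 186 and 66.6 TPM, were above every ovary and the other 7 were below all of them. The log2 fold change of -1.61 ± 1.06 did not pass (limma, adjusted p = 0.292), with the largest tumor spread of the 9 genes, an SD of 2.01 on the log2(TPM + 1) scale beside 0.09 in the ovaries. Its 2 highest tumors were those in which fibroblast markers also summed highest, at 4659 TPM in MP tumor 9 and 2441 TPM in MP tumor 5 against 1326 to 2308 TPM in the ovaries, and the part of fibroblasts in the Fn1 level was not tested.

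**Figure D3:**
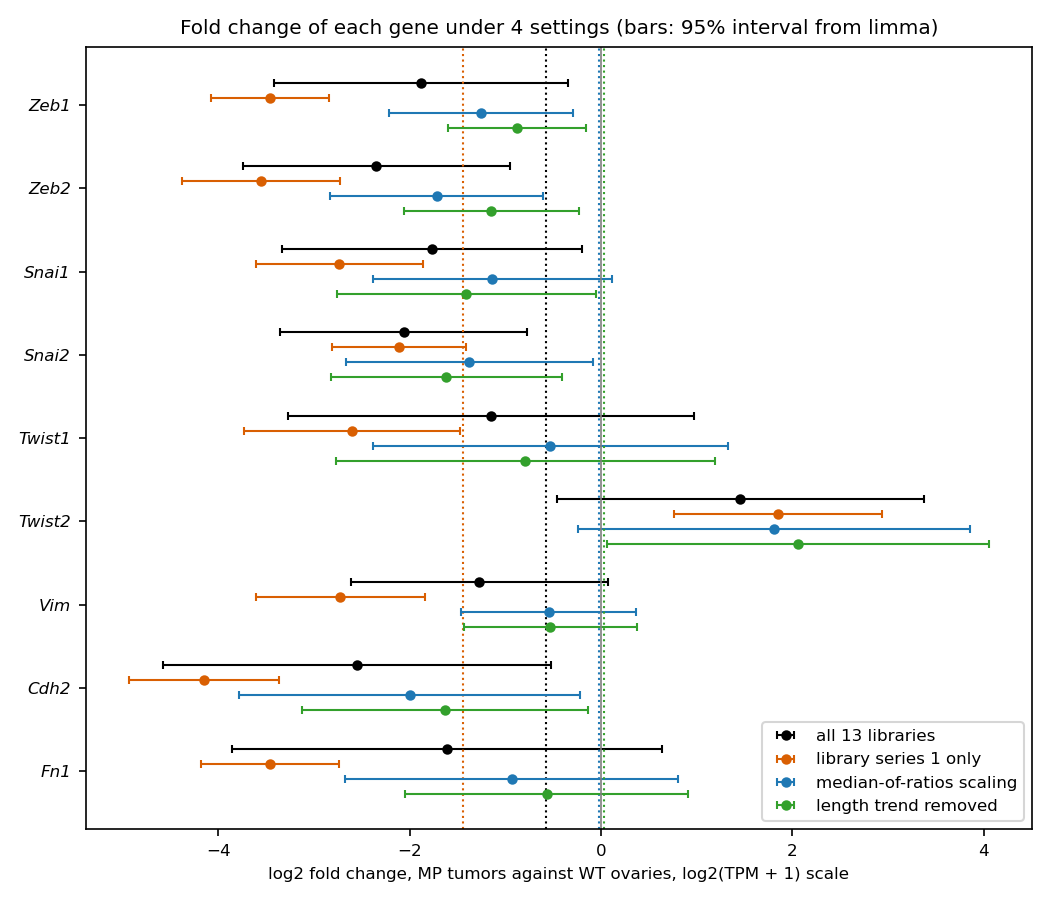
Log2 fold change of each gene in MP tumors against WT ovaries with its 95% interval from limma, for all 13 libraries, library series 1 only, median-of-ratios scaling and with the length trend removed, where dotted lines give the median of all genes in each setting. Twist2 is the 1 gene to the right of 0 in all 4 settings, and the series 1 values of Zeb1, Zeb2, Cdh2 and Fn1 lie furthest left, between -3.46 and -4.15.

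How many of the 9 passed depended on the libraries and the model more than their direction did. In library series 1 alone 8 were lower and 1 higher, beside 62.4% and 6.84% of all genes. With series as a covariate 8 were lower and 0 higher, where 49.4% of all genes were lower, and with limma-voom on the reads worked back 5 were lower (Zeb1, Zeb2, Snai1, Snai2 and Cdh2), where 23.7% of all genes were. With median-of-ratios scaling 1 was lower (Zeb2, adjusted p = 0.0334), beside 10.9% of all genes, and with the length trend removed 0 were, beside 10.3% of all genes by the same limma test, though 5 had an unadjusted p under 0.05 with a negative fold change and 1, Twist2, with a positive one (adjusted p = 0.131), beside 16.9% and 18.3% of all genes at that p. Without MP tumor 5 there were 5 lower, where 18.5% of all genes were. Without MP tumor 9 there were 3 (19.2% of all genes), without MP tumor 10, in which Trp53 RNA stood at 187 TPM, 3 (17.4%), and without MP tumor 2, 2 (14.0%). With the length trend removed the median log2 fold change of the 9 was -0.88 beside 0.04 over all genes.

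Of the epithelial genes, the adhesion molecules Cdh1 and Epcam are given in full. Cdh1 (E-cadherin) stood at 10.2, 13.4 and 10.2 TPM in the ovaries and ran from 0 TPM in MP tumor 6 through a median of 0.346 to 7.15 TPM in MP tumor 1. Every tumor was below every ovary, with MP tumor 1 far above the other 9, of which none exceeded 1.38 TPM. Cdh1 passed, its log2 fold change being -2.91 ± 0.52 (limma, adjusted p = 0.0013). Epcam, an epithelial adhesion molecule, had a mean of 41.5 ± 6.70 TPM (SD, n = 3) in ovaries and 4.10 ± 5.12 TPM (SD, n = 10) in tumors, again with all 10 below the ovaries (log2 fold change -3.58 ± 0.71, limma, adjusted p = 0.00287).

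Ratios of 2 genes within a library depend less on its scaling than single levels do, so 5 were compared, each as log2((TPM + 1)/(TPM + 1)). The added 1 draws the ratio toward 0 where a gene is near or under 1 TPM, as Cdh1 was in most tumors and Twist2 in the ovaries. Cdh2 over Cdh1, the cadherin switch of EMT, was 1.26, 1.23 and 1.06 in the ovaries. In the tumors it ran from -2.82 in MP tumor 1 through a median of 1.39 to 4.70 in MP tumor 5. MP tumors 4, 5, 6, 9 and 10 were above every ovary and the other 5 were below every ovary. The difference of means was 0.36 (2-sided exact permutation test, p = 0.794, adjusted over 5 ratios 0.794, smallest possible 0.0035). With 0.1 added in place of 1 it was 1.25 (exact permutation p = 0.479), and in library series 1 it had the other sign, at -1.69.

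Vimentin over keratin 8, Vim/Krt8, likewise split the tumors, with 5 above and 4 below the ovaries. It ran from -0.35 in MP tumor 4 to 7.93 in MP tumor 6, with a difference of 0.70 (exact permutation test, p = 0.699, adjusted 0.794), or 1.11 with 0.1 added (exact permutation p = 0.591). Zeb2/Zeb1 differed by -0.47 (exact permutation p = 0.479, adjusted 0.794) and Snai2/Snai1 by -0.30 (exact permutation p = 0.745, adjusted 0.794). Twist2/Twist1 was -3.85, -3.45 and -3.95 in the ovaries and ran from -4.74 in MP tumor 10 through a median of -0.78 to 2.31 in MP tumor 3. It was above every ovary in 9 of 10 tumors, and the difference of 2.61 did not pass (exact permutation test, p = 0.0629, adjusted 0.315). As for Twist2 itself, this direction is a description, since Twist2 was kept through the tumors in which it was high. None of the 5 ratios passed, with 1 or with 0.1 added.

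**Figure D4:**
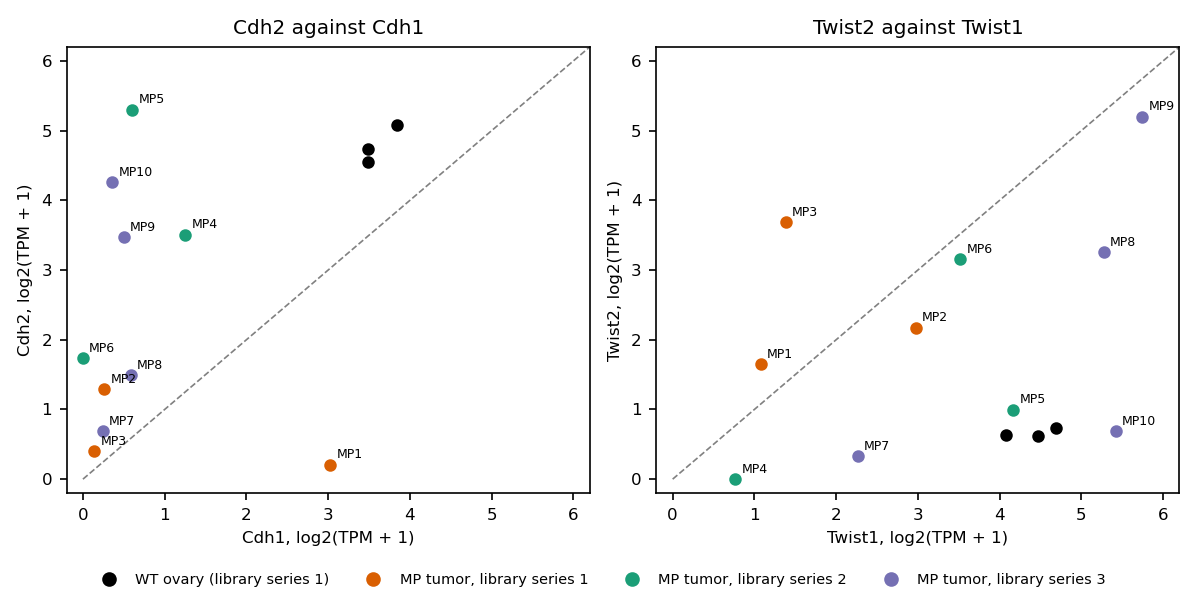
Left, Cdh2 against Cdh1, and right, Twist2 against Twist1, as log2(TPM + 1) in 3 WT ovaries (black) and 10 MP tumors coloured by library series, with the line of equal levels dashed. The tumors other than MP tumor 1 lie at 1.25 or less for Cdh1 and spread widely in Cdh2, and MP tumors 1 and 3 lie above the line for Twist2.

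Across the 10 tumors, levels of the 9 genes were compared with each other in 36 pairs, of which 31 had a positive Pearson correlation of log2(TPM + 1), with a median of 0.54. The share of positive pairs among other genes was not computed, so these values have no background. Scale factors of the tumors under median-of-ratios scaling ran from 0.316 in MP tumor 2 to 1.46 in MP tumor 9. After adjustment 5 pairs passed by a permutation test of 100000 resamples, and 14 had an unadjusted p under 0.05. Zeb1 and Fn1 were closest, with r = 0.94 (adjusted p = 0.00144) and rho = 0.95 (adjusted p = 0.00216), and r = 0.94 without the 2 tumors farthest from the median of Zeb1. The others were Zeb1 with Vim (r = 0.80) and Snai1 (r = 0.80), Snai1 with Fn1 (r = 0.81) and Cdh2 with Fn1 (r = 0.82), each with an adjusted p of 0.0417 for r and none past the threshold by rho (adjusted p from 0.0752 to 0.147). Zeb1 with Vim had r = 0.58 without the 2 farthest tumors.

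Fewer pairs passed when most single tumors were left out. The count of pairs was 7 without MP tumor 4, 2 without MP tumor 7 and 1 without any other single tumor. After each series was centred on its own mean, Zeb1 and Fn1 kept r = 0.98 (permutation within series, p = 0.00231, adjusted p = 0.0833), and 0 of the 36 pairs passed. Under median-of-ratios scaling 1 pair passed. Snai2 and Twist2 stood apart, with r between -0.01 and 0.59 for Snai2 and between -0.22 and 0.40 for Twist2 with each other gene. No p-value of a series on its own could pass, since each holds 3 or 4 tumors.

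**Figure D5:**
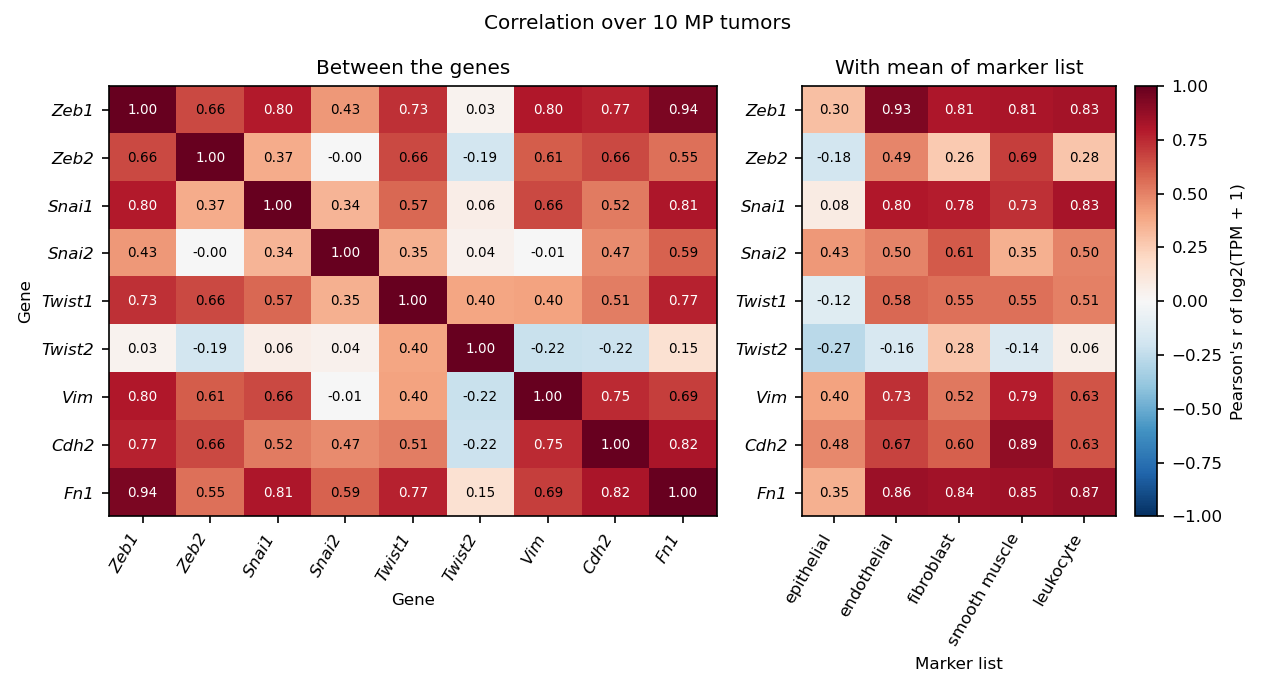
Pearson's r over 10 MP tumors between the 9 genes (left) and of each gene with the mean log2(TPM + 1) of 5 marker lists (right), on a colour scale from -1 to 1. Zeb1, Snai1, Vim, Cdh2 and Fn1 form a block of r from 0.52 to 0.94, Twist2 has r of at most 0.40 with any gene, and no gene has r above 0.48 with the epithelial mean.

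Several of the 9 RNAs are also made by stromal, vascular and immune cells, so each was set beside the mean of 5 marker lists in the same tumors. Of 45 relations 13 passed by r after adjustment, 6 by rho, 0 after centring on series and 0 under median-of-ratios scaling. After centring no p under 0.00116 was possible, so 1 of 45 relations could not pass on its own. The centred r of the 13 ran from 0.68 (Vim with smooth muscle) to 0.88 (Zeb1 with smooth muscle). Without MP tumor 5, 1 passed, while 8 passed without MP tumor 2 and 8 without MP tumor 9. Zeb1 passed with the endothelial (r = 0.93), fibroblast, smooth muscle and leukocyte means, and Fn1 with the same 4 (r = 0.86 for endothelial and 0.87 for leukocyte). Snai1 passed with the endothelial, fibroblast and leukocyte means, and Vim and Cdh2 with smooth muscle (r = 0.89 for Cdh2). Zeb2, which macrophages and other leukocytes also express, had r = 0.28 with the leukocyte mean, and no gene passed with the epithelial mean. The levels of these lists differed from the ovaries to unequal degrees, and their counts of genes called lower are to be read beside 14.3% of all genes, or 18.5% without MP tumor 5, 19.2% without MP tumor 9 and 3.61% to 4.06% without an ovary. Endothelial markers summed to 491 to 581 TPM in ovaries and 12.2 to 314 TPM in tumors, with all 10 below and 4 of 8 genes called lower (8 without MP tumor 5 or 9, 2 without any 1 ovary). Smooth muscle markers summed to 1352 to 1576 TPM and 52.3 to 1267 TPM, with all 10 below and 4 of 5 genes called (1 without ovary 1, 2 without ovary 2 or 3). Fibroblast sums were 1326 to 2308 TPM and 90.0 to 4659 TPM, with 8 of 10 below, MP tumors 5 and 9 above and 2 of 7 genes called (4 without MP tumor 5 or 9, 1 without MP tumor 2, 3, 4, 6 or 8, 0 without any 1 ovary). Leukocyte sums were 1011 to 3192 TPM and 488 to 3666 TPM, with 4 of 10 below, MP tumor 3 above every ovary and 0 of 7 genes called by limma (3 at an unadjusted p under 0.05, and 2 called without MP tumor 5 and 1 without MP tumor 9). Of the granulosa, theca and luteal markers, another source of such RNAs in ovary, 8 of 9 were lower (5 without any 1 ovary), with sums of at least 11709 TPM in ovaries and at most 1604 TPM in tumors. In library series 1 alone, beside 62.4% of all genes, 8 endothelial, 4 smooth muscle, 6 fibroblast and 5 leukocyte genes were lower. So were 9 granulosa, theca and luteal genes. With series as a covariate, beside 49.4% of all genes, these counts were 8, 4, 6, 4 and 8. The part of these cell types in the levels of the 9 genes was not tested.

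With TPM as deposited, the genes that passed on the wider EMT lists, which hold inhibitors as well as activators, were all lower. Of 15 other EMT factors 13 were tested, 4 were lower and 0 higher, beside 14.3% and 2.51% of all genes, with a median log2 fold change of -1.13 beside -0.58. The count was 1 without MP tumor 1 or 7, 2 without MP tumor 2, 3, 4, 6, 8 or 10, and 5 without MP tumor 9. It was 11 of 12 tested in library series 1 alone and 8 with series as a covariate, where 62.4% and 49.4% of all genes were lower. The 4 called with all libraries were Id2, Sox4, Id3 and Snai3. Id2, an inhibitor of basic helix-loop-helix factors, had a mean of 190 TPM in ovaries and 13.1 to 52.9 TPM in tumors (log2 fold change -2.73 ± 0.45, limma, adjusted p = 0.000624). Sox4, a factor induced by TGF-β, had a mean of 82.9 TPM and 2.48 to 46.5 TPM (-2.31 ± 0.74, limma, adjusted p = 0.0438).

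TGF-β signalling, which induces SNAIL and ZEB genes in epithelial cells, was read from 17 genes. Of them 6 were lower and 0 higher, beside 14.3% of all genes lower, with a median of -1.75. The count was 4 without MP tumor 1, 3, 4, 6 or 7 and 8 without MP tumor 9. It was 16 in library series 1 alone and 16 with series as a covariate, where 62.4% and 49.4% of all genes were lower. Tgfbr1, the type I receptor, had a mean of 121 TPM in ovaries and 6.47 to 41.5 TPM in tumors (-2.73 ± 0.48, limma, adjusted p = 0.00123). Ltbp1, which holds latent TGF-β in the matrix, had a mean of 219 TPM and 0.0929 to 72.9 TPM (-5.69 ± 1.08, limma, adjusted p = 0.00214). The other 4 were Skil, a feedback inhibitor, the ligand gene Tgfb1, its receptor gene Tgfbr2, and Bmpr2, a receptor of the related BMP ligands.

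Of 17 effectors of the mesenchymal state 9 were lower and 0 higher, beside 14.3% of all genes lower, with a median of -2.28. The count was 4 without MP tumor 8 and 5 without MP tumor 1, 3 or 6. It was 12 in library series 1 alone and 10 with series as a covariate, where 62.4% and 49.4% of all genes were lower. Tnc (tenascin C) had a mean of 294 TPM in ovaries and 0.695 to 50.3 TPM in tumors (-5.48 ± 0.78, limma, adjusted p = 0.000161). Cdh11, the cadherin of mesenchymal cells, had a mean of 39.7 TPM and 0.199 to 18.9 TPM (-3.68 ± 0.76, limma, adjusted p = 0.00422). Under median-of-ratios scaling 5 of the 17 were lower and 1 higher, beside 10.9% and 7.48% of all genes.

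On the epithelial list 16 of 19 genes were tested and 7 were lower, beside 14.3% of all genes, with a median of -1.93 beside -0.58, led by the largest moderated statistics, those of Esrp1, an epithelial splicing factor (-2.32 ± 0.22, limma, adjusted p = 2.78e-06), and Dsp, desmoplakin of desmosomes (-4.48 ± 0.66, limma, adjusted p = 0.000245). Among the 9 that did not pass, the keratin genes Krt8 and Krt18 ran from 0.590 to 425 TPM and from 2.06 to 496 TPM in the tumors, around ovary means of 63.7 and 53.7 TPM. Summed, the 19 genes were above the ovaries, at 335 to 377 TPM, in MP tumors 4 (1279 TPM) and 9 (491 TPM) and below them in the other 8. Both the mesenchymal and the epithelial list had members that were lower in the tumors, and neither had a member that was higher past the threshold with TPM as deposited. Among the effectors 1 gene was higher under median-of-ratios scaling and 1 with the length trend removed, as were 1 TGF-β gene with the length trend removed and 1 of the other EMT factors with limma-voom. These counts rest on the ovaries as well. When any 1 of the 3 ovaries was left out, 1 of the other EMT factors, 2 of the TGF-β genes, 2 or 3 of the mesenchymal effectors and 3 of the epithelial genes were lower, and 0 of any of these lists were higher. In the same fits 3.61%, 4.05% and 4.06% of all genes were lower, without ovary 1, 2 and 3. In library series 1 alone 11 of 15 epithelial genes tested were lower, beside 62.4% of all genes. With series as a covariate 10 of 16 were lower, beside 49.4% of all genes.

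For each of the 9 genes the 2 genes with the most similar level over the 10 tumors were taken from 10917 candidates with a mean of at least 5 TPM, and these r are the highest of many. For Zeb1 they were Prkd2 and Fam131a (both r = 0.99), and for Zeb2 Kcnq5 (0.98) and Svil (0.95). Snai1 was nearest to Tlr2 (0.94) and Cyth3 (0.92), Snai2 to 1810026B05Rik (0.92) and AU021092 (0.90). Twist1 was nearest to Zfp521 and Igsf3 (both 0.97), Twist2 to Gm11266 and 3110056K07Rik (both 0.87). Vim was nearest to Sema6a and Sema4b (both 0.98), Cdh2 to Cgn and Kdm7a (both 0.97) and Fn1 to Lrp1 and Nhsl1 (both 0.97). The genes nearest to Snai2 and Twist2 had the lowest r of the 9, and no p-value is given for a gene chosen as the nearest.

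By level per length, the ovaries ranked Vim first and Fn1 second, and Twist2 last. Between these, the ranges of neighbours overlapped for Zeb2, Cdh2, Snai2, Snai1 and Twist1, with means from 29.4 TPM down to 20.6 TPM, while Zeb1 at 31.3 to 34.6 TPM lay above Zeb2 but overlapped Cdh2, which reached 32.7 TPM. In the tumors Fn1 was second in 5 of 10 libraries, and the second place went to Twist1 in MP tumors 2 and 8, Twist2 in MP tumor 3, Cdh2 in MP tumor 4 and Zeb1 in MP tumor 7. Cdh2 was last of the 9 in MP tumors 1, 2, 3 and 8, and Twist2 was last in MP tumors 4, 5, 7 and 10.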

How the data were processed

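Bulk RNA of 10 MP tumors and 3 WT ovaries was compared. The authors deposited 1 table of TPM values with a column per library, each column summing to 1000000, and replicates were not pooled. The submitters' processing notes name FastQC 0.11.5, Trimmomatic 0.36, STAR 2.5.3a, featureCounts 1.6.3 and mouse build mm10 (GRCm38), whereas the extraction protocol names a human build, HTSeq and RPKM. The table was taken as TPM of mouse genes, since 96.0% of the genes lie at the coordinates of GENCODE M21. Columns were matched to samples by the label's description, and 0 columns of other samples were present. A gene's TPM falls when other genes take a larger share.

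The product of TPM and length came in whole steps (tolerance 0.01) for 100.0% of values above 0, and 1 step was read as 1 read. Floors (3 reads) cover counting error only, and the 95% intervals from limma rest on the spread between libraries. The chi-square per degree of freedom between libraries of 1 group was at least 28.4, above sampling noise, so none is a second sequencing of another. This value cannot show whether the samples are independent. Nothing in the labels says more of the replicates than that each is a separate sample, so p-values measure the spread between these samples.

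Values were tested as log2(TPM + 1) with limma 3.58.1 (trended, robust) in R 4.3.3 over genes reaching 1 TPM in 3 or more libraries, without a covariate. Benjamini-Hochberg adjustment ran over all genes tested, with a threshold of 0.05. On this scale the changes of low genes come out too small. Ratios were compared by exact permutation tests and correlations by permutation with 100000 resamples (scipy 1.17.1, Python 3.11.15), and permutations within series were enumerated. Scripts were tested on simulated data. Alternatives varied the pseudocount (0.1), the filter, the scaling, the library series, the replicate block, single libraries, the limma options, voom, the depth and the trend with gene length.

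The genes and lists were chosen with earlier results of these data known. Named genes are the 9 genes, Cdh1 and Epcam, in each list the 2 with the highest absolute moderated statistic, and the 2 nearest genes of each of the 9. Of the cell type lists the text gives the counts, and the leading genes were Tek and Cldn5 (endothelial), Pdgfra and Lum (fibroblast), Myh11 and Cnn1 (smooth muscle), Ptprc and Csf1r (leukocyte), Cyp19a1 and Lhcgr (granulosa, theca and luteal), Msln and Upk3b (mesothelial) and Bmp15 and Zp3 (oocyte). Of the oocyte genes 4 of 4 were lower, and of the mesothelial genes 1 of 4, beside 14.3% of all genes. The mesothelial count was 0 without any 1 ovary and 3 without MP tumor 9. It was 4 in library series 1 alone and 3 with series as a covariate. Zeb1 and Cdh2 are described by their values only, and Snai2 and Fn1 promoters were not analysed here. WT ovaries 1 to 3 and MP tumors 1 to 3 share replicate numbers, and nothing in the labels says whether these pair samples.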

Additional observations from a re-analysis of the deposited data

Results flagged for a closer look

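Among 21 measures of the MP tumors checked with Dixon's criterion, 1 held a tumor far from the others, and chance alone flags about 1 in 20. The log2(TPM + 1) of Cdh1 in MP tumor 1 was 3.03, from 235 reads, while the next highest tumor was at 1.25, a gap of 0.587 of the whole range. In the same tumor Cdh2 was at its lowest (0.155 TPM, from 9 reads), which gives the ratio of Cdh2 to Cdh1 of -2.82, the 1 negative value among the 10 tumors. Zeb2 was also at its lowest there, at 0.523 TPM, and the epithelial markers summed to 281 TPM.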

How the results depend on the processing

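The fold changes of the 8 genes other than Twist2 were negative under all 25 alternatives, but the number of calls did not stay. Of the 9 genes, 2 were lower with all libraries, 1 with log2(TPM + 0.1), 1 with median-of-ratios scaling, 5 with limma-voom, 8 in library series 1 alone, 8 with series as a covariate and 0 with the length trend removed, and between 0 and 5 when 1 library was left out (0 without WT ovary 1, 2 or 3, 5 without MP tumor 5). The number higher was 0 with all libraries and whenever 1 library was left out, and 1 in series 1 alone. Over all genes, 2896 passed, against 10547 in series 1 alone, 9428 with the covariate, 5984 with limma-voom and between 684 and 3741 when 1 library was left out. Of all genes, 14.3% were lower with all libraries, 10.1% with log2(TPM + 0.1), 10.9% with median-of-ratios scaling and 23.7% with limma-voom. In series 1 alone 62.4% were lower and 6.84% higher. The share lower was 49.4% with the covariate and 10.3% with the length trend removed. It was 3.61% to 19.2% when 1 library was left out. Of the correlations, 5 pairs of genes passed with all tumors, 1 with log2(TPM + 0.1), 1 with median-of-ratios scaling, 0 centred on series and between 1 and 7 when 1 tumor was left out, and 13 relations with marker means passed, 0 with median-of-ratios scaling, 0 centred on series and between 1 and 16 when 1 tumor was left out. When centred, no p under 0.00116 was possible, so 1 of the 45 relations could not pass on its own. The centred r of the 13 relations was 0.68 to 0.88. The cause of the changes in these counts was not tested.

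With each gene centred on its group mean, same-numbered ovaries and tumors had correlations of -0.0992, -0.0124 and 0.000957. With 3 libraries in each group, these values cannot show whether the replicate numbers pair samples. A replicate block gave 8 of the 9 genes lower and 1 higher, beside 63.1% and 6.84% of all 15239 genes tested, and 10663 genes in all. Its ratios were -1.69 (Cdh2/Cdh1), -0.84 (Vim/Krt8) and 0.62 (Snai2/Snai1).

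In series 1 alone the ratios also had the other sign from all libraries, at -1.69 for Cdh2/Cdh1, -0.84 for Vim/Krt8 and 0.62 for Snai2/Snai1, where no p under 0.1 is possible. When 1 library was left out they ranged from 0.00897 to 0.84, from 0.22 to 1.14 and from -0.55 to -0.06, and Zeb2/Zeb1 from -0.58 to -0.23 and Twist2/Twist1 from 2.23 to 3.01.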
